A study of Mus musculus with 11 samples.

Results

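Platelet-derived growth factor (PDGF) signaling was followed through 6 genes, the receptors *Pdgfra* and *Pdgfrb* and the ligands *Pdgfa*, *Pdgfb*, *Pdgfc* and *Pdgfd*, out of 38561 genes counted in each library. The 6 genes are the ligands and receptors of the family by name, taken up with earlier results of these data known, and were matched by symbol to the Ensembl identifiers of the counts. All 6 passed the low-count filter and were among the 17317 genes tested. Total RNA was sequenced from facial process explants, that is, mandibular and maxillary branchial arch with nasal processes, of mouse embryos at E10.5. The 11 libraries were labelled wild type (wt, n = 2), *Rspo2* homozygous mutant (Rspo2KO, n = 3), *Wnt9b* homozygous mutant (Wnt9bKO, n = 3) and homozygous mutant for both genes (DKO, n = 3), all on a strain background given as Mixed. *Wnt9b* encodes a WNT ligand made by the facial ectoderm, and *Rspo2* encodes a secreted R-spondin that raises the response of cells to WNT. The labels name neither the alleles nor the number of embryos behind a library, and the methods list 2 null versions of *Rspo2*, with and without a reporter cassette, without saying which these libraries carry. They also do not say that the libraries of a group came from separate embryos, so p-values measure the spread between these libraries, which may be technical.

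PDGF ligands are secreted dimers that bring a pair of receptor tyrosine kinases together, and the receptors then recruit adaptors, phosphoinositide 3-kinase, phospholipase C and the RAS pathway through phosphorylated tyrosines. PDGF-A and PDGF-C act mainly through PDGFRα, which marks the cranial neural crest mesenchyme and is needed for closure of the facial midline and palate, whereas PDGF-B and PDGF-D act mainly through PDGFRβ, which is known for recruiting pericytes to vessels. PDGF-C and PDGF-D are secreted in a latent form and have to be cut by proteases before they bind.

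*Rspo2*, given first as a check of the labels, measured 14.8 and 16.01 CPM (counts scaled to the size of the library) in wt and 6.59, 4.80 and 4.74 CPM in Rspo2KO. It measured 22.8, 2.86 and 18.1 CPM in the libraries labelled Wnt9bKO 1, 2 and 3, and 4.17, 3.67 and 15.5 CPM in those labelled DKO 1, 2 and 3. The library labelled Wnt9bKO 2 was thus as low as those labelled Rspo2KO and the library labelled DKO 3 as high as wt. Both go against their labels, and PDGF values that they move are also given without them. *Wnt9b* reads were present in every library, at 10.8 to 13.4 CPM in wt and 16.2 to 23.3 CPM in Wnt9bKO. They were higher in Wnt9bKO and DKO than in wt, by 0.61 (adjusted p = 0.0187) and 0.68 (adjusted p = 0.0138, edgeR) on the log2 scale, so they do not check the *Wnt9b* label. Total counts ran from 11136166 to 18017344 per library. *Xist* was between 679.6 and 1469 CPM in wt and DKO and below 2 CPM in both single mutants, while the Y-linked *Ddx3y* was at 57.6 CPM or more in the single mutants and at 4.43 CPM or less in wt and DKO (both genes were chosen after their values were seen). Sex of the embryos, as read from these genes, therefore cannot be told apart from genotype in the single mutants against wt or DKO, or in the interaction. Within DKO, *Ddx3y* measured 0.059, 0.12 and 4.43 CPM in DKO 1, 2 and 3. The DKO library with *Rspo2* as high as wt thus also held *Ddx3y* reads, beside the highest *Xist* level (1469 CPM), and their origin was not tested. Annotated small nuclear RNAs summed to 352 to 420 CPM in wt and Rspo2KO and to 70.1 to 82.7 CPM in Wnt9bKO and DKO, so a difference between libraries beyond the facial genes moved with the *Wnt9b* label, and its part in the results was not tested.

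Scaled by exon length, as RPKM (CPM divided by kilobases of exon), *Pdgfra* was the most abundant of the 6 genes, with a mean of 20.9 RPKM over the 11 libraries, followed by *Pdgfrb* at 15.2 RPKM. *Pdgfa* at 12.5 RPKM and *Pdgfc* at 9.05 RPKM, the ligands of PDGFRα, came next, and *Pdgfb* at 1.402 RPKM and *Pdgfd* at 1.30 RPKM were lowest. The step from *Pdgfc* to *Pdgfb* was 6.46-fold and was the only step at which the ranges over all 11 libraries did not overlap. In wt the first 4 genes kept apart in both libraries, and *Pdgfb* and *Pdgfd* overlapped. In Rspo2KO the ranges of *Pdgfa* (10.01 to 11.5 RPKM) and *Pdgfc* (7.31 to 11.2 RPKM) overlapped as well, and *Pdgfd* had a higher mean than *Pdgfb* (1.29 against 1.17 RPKM) with overlapping libraries. In Wnt9bKO both receptors overlapped, with *Pdgfra* between 15.8 and 29.5 RPKM and *Pdgfrb* between 14.1 and 17.7 RPKM. In DKO *Pdgfrb* (12.3 to 15.4 RPKM) overlapped *Pdgfa* (11.5 to 14.8 RPKM).

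**Figure D1:**
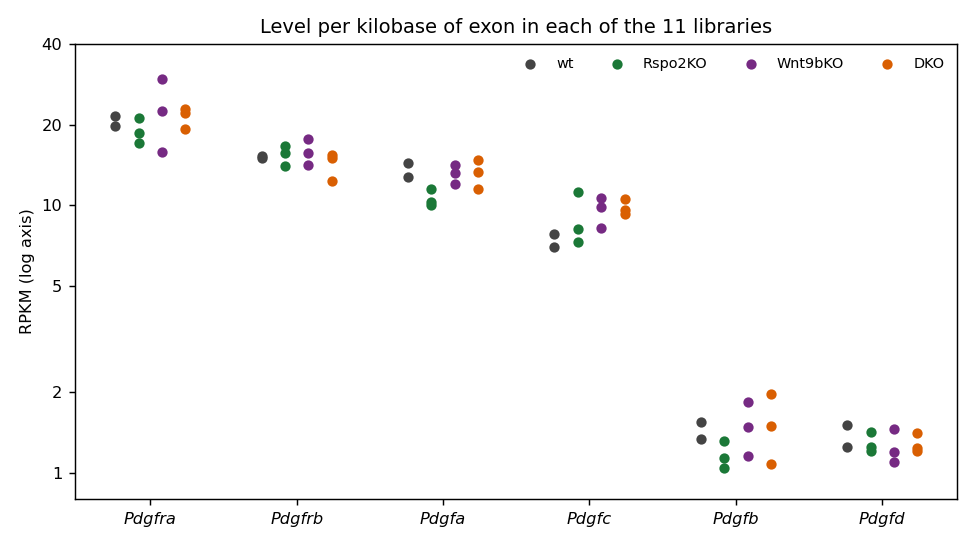
Level of each PDGF gene in RPKM (log axis) in the 11 libraries, 1 point per library, colored by genotype label. *Pdgfra*, *Pdgfrb*, *Pdgfa* and *Pdgfc* lie between 6.95 and 29.5 RPKM, and *Pdgfb* and *Pdgfd* between 1.05 and 1.98 RPKM in every genotype.

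In the GRCm38 annotation *Pdgfra* (ENSMUSG00000029231) spans chr5:75152292-75198215 on the plus strand. The ligand genes are *Pdgfa* (ENSMUSG00000025856, chr5:138976014-138997370, minus), *Pdgfb* (ENSMUSG00000000489, chr15:79995874-80014977, minus), *Pdgfc* (ENSMUSG00000028019, chr3:81036416-81214040, plus) and *Pdgfd* (ENSMUSG00000032006, chr9:6168584-6378850, plus). *Pdgfa* overlaps the antisense gene 6330403L08Rik, with at most 122 counts in a library, *Pdgfc* overlaps the antisense gene Gm16000, with at most 46, and *Pdgfd* overlaps *Ddi1*, with at most 8. The sources used here do not state whether counting used strand, so reads of these pairs may have been split.

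Since both mutated genes act in WNT signaling, upstream sequences were searched for the core of the site bound by TCF/LEF factors, which act with β-catenin. The 250 bases upstream of the start sites of *Pdgfa*, *Pdgfc*, *Pdgfd* and *Pdgfra* were searched on both strands for CTTTGAT or CTTTGTT. *Pdgfb* and *Pdgfrb* were not searched. The sequences of *Pdgfc*, the ligand with the largest difference from wt in the libraries labelled Wnt9bKO and DKO, of *Pdgfra*, its receptor, and of *Pdgfd* are given from RefSeq (GRCm38.p6), 5′ to 3′ on the strand of the gene, with the letters of a TATA box (TATAAA) in capitals.
*Pdgfc* upstream, chr3:81036166-81036415, plus strand: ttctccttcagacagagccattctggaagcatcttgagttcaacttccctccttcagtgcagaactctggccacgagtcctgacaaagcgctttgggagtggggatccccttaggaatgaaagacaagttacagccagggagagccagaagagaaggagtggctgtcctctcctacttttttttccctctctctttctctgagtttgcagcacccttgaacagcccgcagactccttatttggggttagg
*Pdgfra* upstream, chr5:75152001-75152250, plus strand: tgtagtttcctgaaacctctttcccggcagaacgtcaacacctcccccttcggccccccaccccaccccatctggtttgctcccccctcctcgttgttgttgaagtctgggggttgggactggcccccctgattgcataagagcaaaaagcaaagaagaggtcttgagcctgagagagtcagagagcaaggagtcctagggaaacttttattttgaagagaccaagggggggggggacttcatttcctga
*Pdgfd* upstream, chr9:6168236-6168485, plus strand: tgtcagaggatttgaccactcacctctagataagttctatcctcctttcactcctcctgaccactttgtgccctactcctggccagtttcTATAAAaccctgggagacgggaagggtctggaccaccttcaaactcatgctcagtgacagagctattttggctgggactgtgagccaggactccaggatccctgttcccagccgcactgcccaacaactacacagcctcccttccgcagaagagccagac

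Neither core was present in these 3 windows or in the 2 windows of *Pdgfa*, which is a statement on these letters in these windows alone. Of 32851 upstream windows of this length in the mouse table, 3.21% held CTTTGAT and 5.03% held CTTTGTT on either strand. The letters TATAAA in *Pdgfd*, 160 bases before its RefSeq start site, were the only such match in the 5 windows, and 12.4% of all windows held them. Whether they act as a TATA box was not tested. The RefSeq start sites of *Pdgfd* (chr9:6168486) and *Pdgfra* (chr5:75152251) lie upstream of the annotated gene starts given above. The 2 *Pdgfa* windows held 66.4% and 72.4% G and C, against a median of 52.4%, and 1 and 2 copies of the GC box GGGCGG, which 32.7% of windows hold. Those of *Pdgfc*, *Pdgfra* and *Pdgfd* held 50.8%, 54.4% and 53.6% G and C and no GC box.

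The receptors showed no difference between genotypes that passed the test. *Pdgfra*, the receptor of the facial mesenchyme, measured 216 and 198 CPM in wt, 187, 171 and 212 CPM in Rspo2KO, 296, 158 and 226 CPM in Wnt9bKO, and 229, 193 and 222 CPM in DKO. Its highest and its lowest library over the whole series were both labelled Wnt9bKO, and the groups overlapped in every comparison. The log2 fold change against wt was 0.13 in Wnt9bKO (95% interval -0.28 to 0.54), -0.12 in Rspo2KO (-0.53 to 0.28) and 0.05 in DKO (-0.35 to 0.46). With an offset for GC content and gene length the Wnt9bKO and DKO values turned to -0.12 and -0.18, and without the library labelled Wnt9bKO 1 the Wnt9bKO value was -0.11. It was 0.36 (adjusted p = 0.0841, edgeR) without Wnt9bKO 2 and 0.33 (adjusted p = 0.119) without both libraries that go against their labels, so 1 library decides its sign and no direction can be given. The DKO value without both was 0.02. Explants are mixtures of cells, and fewer cells of a type and less RNA per cell cannot be told apart in such counts. The summed level of 7 facial mesenchyme genes (among them *Prrx1* and *Twist1*) was also highest in Wnt9bKO 1, at 983 CPM, and lowest in Wnt9bKO 2, at 589 CPM. Within each genotype *Pdgfra* and this sum put the libraries in the same order. Between genotypes they differed, since the sum was 605 to 646 CPM in Rspo2KO and 803 to 848 CPM in wt, while *Pdgfra* overlapped. Whether the amount of mesenchyme set the *Pdgfra* level was not tested.

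*Pdgfrb* (ENSMUSG00000024620) lies on the plus strand at chr18:61045150-61085061 of GRCm38. It measured 81.9 and 83.4 CPM in wt, 91.0, 76.8 and 85.7 CPM in Rspo2KO, 96.8, 77.4 and 85.6 CPM in Wnt9bKO, and 84.3, 82.3 and 67.6 CPM in DKO. The lowest library was the one labelled DKO 3, and all groups overlapped. The fold relative to wt was 1.02 in Rspo2KO (95% interval 0.848 to 1.23), 1.05 in Wnt9bKO (0.871 to 1.26) and 0.944 in DKO (0.784 to 1.14), so changes of more than 1.5-fold lie outside all 3 intervals. In the fit of all 11 libraries the same held for *Pdgfra* in Rspo2KO, Wnt9bKO and DKO, with intervals of 0.693 to 1.22, 0.826 to 1.45 and 0.782 to 1.37. The Wnt9bKO interval of *Pdgfra* depends on Wnt9bKO 2. Without that library the log2 fold change was 0.36, and 0.33 without both that go against their labels, and no interval is given for these fits. The within-group SD of *Pdgfrb* was 0.14 on the log2 CPM scale and that of *Pdgfra* 0.27, against a median of 0.20 over all genes tested. Markers of mural cells, the vessel-wall cells in which *Pdgfrb* is best known, summed to 171 to 182 CPM in wt, 184 to 222 CPM in Rspo2KO, 197 to 219 CPM in Wnt9bKO and 181 to 191 CPM in DKO, with all 8 tested. *Notch3* alone measured 91.5 to 150 CPM over the series, so this sum mostly follows 1 gene. Of the 8 mural markers, 1 was higher and none lower in Wnt9bKO against wt at adjusted p below 0.05 (edgeR). In DKO against wt 1 was higher and 2 lower. Of all genes tested, 32.8% and 27.5% were called in these comparisons.

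**Figure D2:**
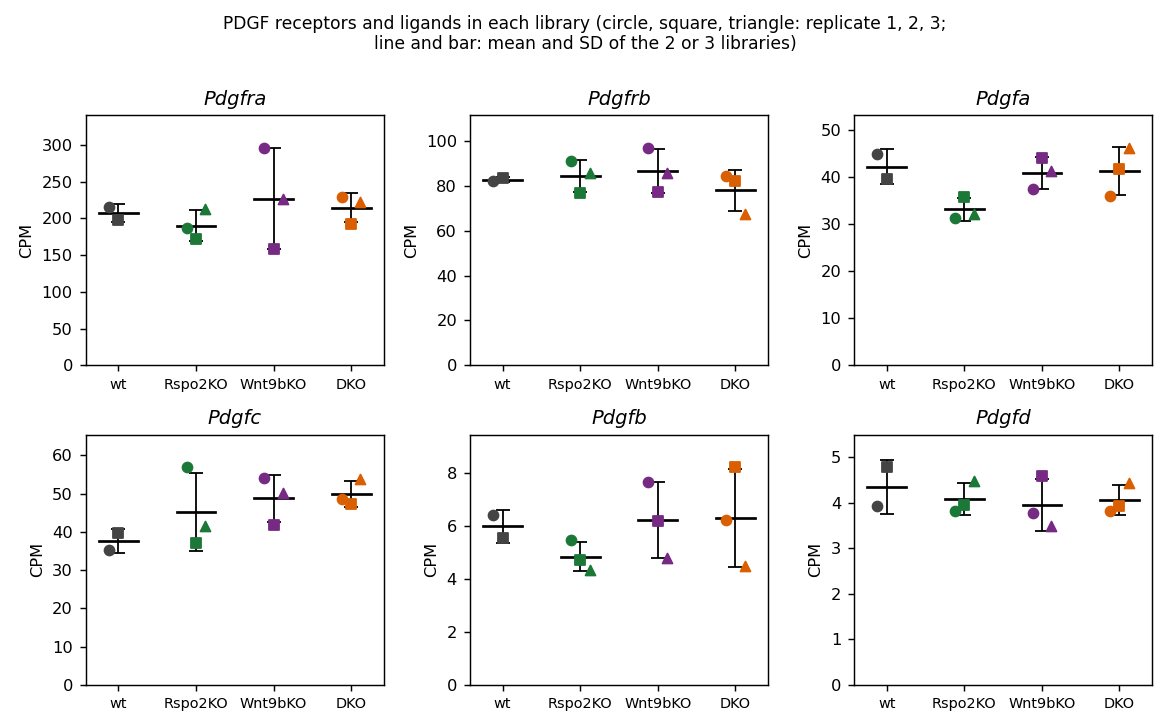
Level of each PDGF gene in CPM (y axis from 0) in each library by genotype label (x axis), with the replicate number as circle, square and triangle, and the group mean and SD as line and bar (n = 2 for wt, n = 3 for the others). *Pdgfa* is lower in all 3 Rspo2KO libraries (31.2 to 35.8 CPM) than in wt, and *Pdgfc* is higher in all Wnt9bKO and DKO libraries (41.8 to 54.1 CPM) than in wt (35.4 and 39.7 CPM). Of all genes tested, 32.9%, 56.3% and 58.1% did not overlap wt in Rspo2KO, Wnt9bKO and DKO.

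*Pdgfa*, a ligand that the facial epithelium supplies to the mesenchyme, was lower in the libraries labelled Rspo2KO than in any other group mean, but the difference did not pass the test over all genes. It measured 44.7 and 39.6 CPM in wt, 31.2, 35.8 and 32.2 CPM in Rspo2KO, 37.3, 44.1 and 41.1 CPM in Wnt9bKO, and 36.0, 41.6 and 46.1 CPM in DKO. Every Rspo2KO library lay below every wt and DKO library, though by little for Rspo2KO 2 (35.8 CPM) against DKO 1 (36.0 CPM). The wt, Wnt9bKO and DKO groups overlapped one another. Libraries of Rspo2KO and wt did not overlap for 32.9% of all genes tested, and those of DKO and Rspo2KO for 36.5%. Mean levels were 42.2 ± 3.62 CPM in wt (SD, n = 2), 33.1 ± 2.43 CPM in Rspo2KO, 40.8 ± 3.38 CPM in Wnt9bKO and 41.2 ± 5.07 CPM in DKO (SD, n = 3 each). By edgeR's quasi-likelihood test the log2 fold change of Rspo2KO against wt was -0.35 ± 0.13 (SE), with an unadjusted p of 0.0157 and an adjusted p of 0.296, a fold of 0.785. Over all alternatives this value ran from -0.44 to -0.25 and its adjusted p from 0.210 to 0.978, with -0.36 and 0.276 without both libraries that go against their labels. For DKO against Rspo2KO it was 0.32 ± 0.11 (SE), with an unadjusted p of 0.0143 and an adjusted p of 0.0682 from edgeR. In Wnt9bKO and DKO against wt the log2 fold changes were -0.05 and -0.03, and both changed sign with the GC and length offset, to 0.08 and 0.07.

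The DKO against Rspo2KO value of *Pdgfa* was near the threshold. It passed with the offset for GC content and length (0.39, adjusted p = 0.0251 from edgeR) and without the library labelled DKO 1 (0.41, adjusted p = 0.0479) or Wnt9bKO 1 (0.32, adjusted p = 0.0497). Without both libraries that go against their labels it was 0.24 with an adjusted p of 0.212, and its range over all alternatives ran from 0.23 to 0.41. The interaction of the genotypes, DKO minus Wnt9bKO minus Rspo2KO plus wt, was 0.36 ± 0.17 (SE) on the log2 scale for *Pdgfa*, with an unadjusted p of 0.0509 and an adjusted p of 0.526 from edgeR. Epithelial markers (10 genes, among them *Epcam*, *Cdh1* and *Krt8*) summed to 234 to 274 CPM in Rspo2KO and 255 to 272 CPM in wt. None of the 10 was called in that comparison (0.0346% of all genes called). In DKO they summed to 234 to 279 CPM. In DKO against Rspo2KO 2 of the 10 were higher and 1 lower at adjusted p below 0.05 (edgeR), beside 18.2% of all genes called. Their part in the *Pdgfa* value was not tested.

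*Pdgfc*, the other ligand of PDGFRα, had the largest difference from wt among the 6 genes in Wnt9bKO and in DKO. It measured 35.4 and 39.7 CPM in wt, 56.8, 37.2 and 41.6 CPM in Rspo2KO, 54.1, 41.8 and 50.3 CPM in Wnt9bKO, and 48.6, 47.2 and 53.8 CPM in DKO. All 3 Wnt9bKO and all 3 DKO libraries lay above both wt libraries, whereas Rspo2KO held both the highest library of the series and 1 below the upper wt library. Libraries of Wnt9bKO and wt did not overlap for 56.3% of all genes tested, and those of DKO and wt for 58.1%. The log2 fold change against wt was 0.37 ± 0.16 (SE) in Wnt9bKO, with an unadjusted p of 0.0384 and an adjusted p of 0.0948, and 0.41 ± 0.16 in DKO, with 0.0263 and 0.0800 (edgeR). These are folds of 1.30 (95% interval 1.02 to 1.65) and 1.33 (1.04 to 1.69). In Rspo2KO the log2 fold change was 0.26 ± 0.16 (SE) with an adjusted p of 0.556 from edgeR, and the value of DKO against Wnt9bKO was 0.03.

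Both *Pdgfc* differences share the 2 wt libraries and lay close to the threshold. Without the low-count filter they passed, at adjusted p of 0.0412 and 0.0249 (edgeR), and they also passed without the library labelled Rspo2KO 1, at 0.0312 and 0.0245. DKO against wt passed with those groups alone in the fit (0.40, adjusted p = 0.0139 from edgeR), and Wnt9bKO against wt passed without the library labelled Wnt9bKO 2 (0.50, adjusted p = 0.0442). Over all alternatives the adjusted p ran from 0.0312 to 0.390 for Wnt9bKO and from 0.0139 to 0.370 for DKO. Without both libraries that go against their labels the values were 0.47 (adjusted p = 0.0537, edgeR) and 0.34 (adjusted p = 0.158). Among all 17317 genes a change of this size was common in both comparisons, with the absolute log2 fold change of *Pdgfc* at percentile 50.1 in Wnt9bKO and 57.4 in DKO.

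*Pdgfb* and *Pdgfd*, the ligands of PDGFRβ, were measured on few reads, 69 to 144 counts and 44 to 79 counts per library, and no difference was detectable at this depth. *Pdgfb*, made mainly by endothelium, measured 6.43 and 5.56 CPM in wt, 5.47, 4.74 and 4.36 CPM in Rspo2KO, 7.67, 6.20 and 4.80 CPM in Wnt9bKO, and 6.23, 8.22 and 4.49 CPM in DKO. The 3 Rspo2KO libraries lay below both wt libraries, 2 groups that did not overlap for 32.9% of all genes tested, and all other groups overlapped. Its log2 fold change in Rspo2KO against wt was -0.30 (95% interval -0.85 to 0.25), with an adjusted p of 0.682 from edgeR, and it was 0.06 in Wnt9bKO and 0.08 in DKO. The DKO value was 0.27 (adjusted p = 0.447, edgeR) without both libraries that go against their labels, and that of DKO against Rspo2KO went from 0.38 to 0.58 (adjusted p = 0.0919). *Pdgfb* had the widest spread within groups of the 6 genes, with an SD of 0.31 on the log2 CPM scale. Endothelial markers (8 genes, among them *Pecam1* and *Cdh5*) summed to 199.8 to 222 CPM in wt and Rspo2KO and to 184 to 199.6 CPM in Wnt9bKO and DKO. Of the 8, 4 were lower and 1 higher in Wnt9bKO against wt (32.8% of all genes called). In DKO against wt 3 were lower and 1 higher (27.5% of all genes called).

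*Pdgfd* measured 3.93 and 4.77 CPM in wt, 3.82, 3.95 and 4.49 CPM in Rspo2KO, 3.78, 4.59 and 3.48 CPM in Wnt9bKO, and 3.82, 3.92 and 4.43 CPM in DKO. It had the narrowest range of the 6 genes, with the highest library 1.37-fold above the lowest, and all groups overlapped. Its log2 fold change against wt was -0.10 in Rspo2KO, -0.15 in Wnt9bKO and -0.11 in DKO, or -0.27 and -0.18 without both libraries that go against their labels, and the 95% interval of the fold in Wnt9bKO ran from 0.670 to 1.21.

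At an adjusted p below 0.05, 0 of the 6 PDGF genes were called by edgeR in Wnt9bKO against wt, where 32.8% of all genes tested were called. The counts were also 0 in Rspo2KO against wt (0.0346% of all genes), DKO against wt (27.5%), DKO against Wnt9bKO (0.121%), DKO against Rspo2KO (18.2%) and the interaction (0.0635%). DESeq2 called 0 of 6 in each of these comparisons as well. An unadjusted p below 0.05 was reached by 1 gene in Wnt9bKO against wt (*Pdgfc*), Rspo2KO against wt (*Pdgfa*), DKO against wt (*Pdgfc*) and DKO against Rspo2KO (*Pdgfa*), by both tools, and by none in DKO against Wnt9bKO and in the interaction. Among all genes the shares at that level were 43.3%, 11.9%, 39.1%, 31.4%, 5.63% and 9.45% in the same order. No PDGF gene had both an unadjusted p below 0.05 and a change above 1.5-fold (the sizes of p and fold that the study names, applied here to unadjusted p from edgeR), which 24.8%, 4.68%, 20.4%, 12.2%, 2.93% and 5.85% of all genes met. Libraries of the groups did not overlap for 1 gene in Wnt9bKO against wt (56.3% of all genes), 2 in Rspo2KO against wt (32.9%), 1 in DKO against wt (58.1%), 0 in DKO against Wnt9bKO (11.2%) and 1 in DKO against Rspo2KO (36.5%). Without both libraries that go against their labels, the count at adjusted p below 0.05 stayed at 0 in all 6 comparisons.

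The median log2 fold change of the 6 genes was 0.07 in Wnt9bKO, -0.11 in Rspo2KO and 0.01 in DKO against wt, beside medians of 0.01, 0.00 and 0.01 over all genes tested. The values of DKO against Wnt9bKO were at most 0.15 in size, with adjusted p of 0.975 or more from edgeR. Both libraries that go against their labels are in this comparison, and without them *Pdgfra* went from -0.08 to -0.31 (adjusted p = 0.901) and *Pdgfb* from 0.02 to 0.20 (adjusted p = 0.9997). Intervals still allowed changes: over the 6 genes the 95% intervals of the fold reached from 0.554 to 1.53 in Rspo2KO against wt, from 0.670 to 1.65 in Wnt9bKO against wt and from 0.688 to 1.69 in DKO against wt.

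**Figure D3:**
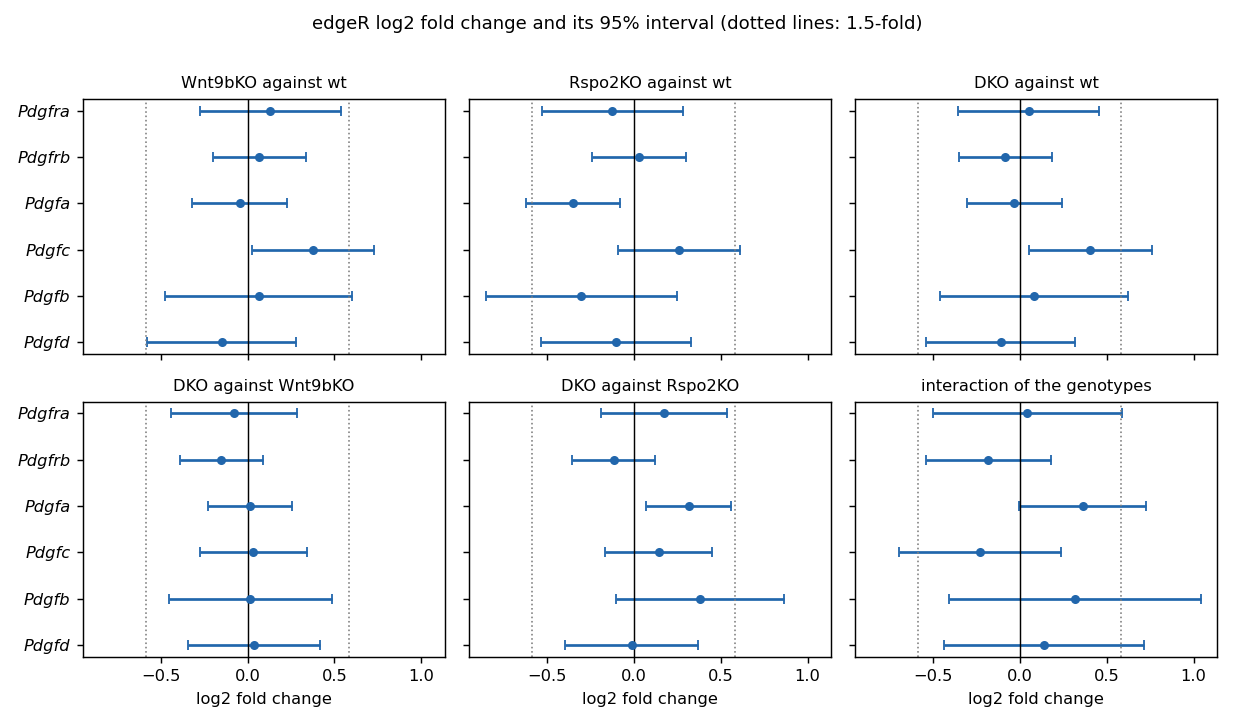
Log2 fold change of each PDGF gene from edgeR (x axis) with its 95% interval, in the 5 comparisons and the interaction, with dotted lines at a change of 1.5-fold in either direction. The intervals of *Pdgfc* in Wnt9bKO and DKO against wt, and of *Pdgfa* in Rspo2KO against wt and DKO against Rspo2KO, leave out 0, and none of these 4 had an adjusted p below 0.05.

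Ratios within a library do not depend on library scaling, and 2 were compared by label, receptor to receptor and ligand to ligand. The log2 ratio of *Pdgfra* to *Pdgfrb* in RPKM was 0.53 and 0.38 in wt, 0.16, 0.29 and 0.44 in Rspo2KO, 0.74, 0.16 and 0.53 in Wnt9bKO, and 0.57, 0.35 and 0.84 in DKO. *Pdgfra* was the higher receptor in all 11 libraries, by 1.12-fold to 1.79-fold. The mean was 0.53 ± 0.25 (SD) in the 6 libraries labelled mutant for *Wnt9b* and 0.36 ± 0.14 in the other 5, a difference of 0.17 (p = 0.203, two-sided exact permutation test, adjusted p = 0.407 over 4 tests). By *Rspo2* label the difference was -0.02 (p = 0.874 and adjusted p = 0.874, same exact test), and the smallest p this design allows is 0.00433.

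The log2 ratio of *Pdgfc* to *Pdgfa* was -1.04 and -0.70 in wt, 0.16, -0.65 and -0.34 in Rspo2KO, -0.17, -0.78 and -0.42 in Wnt9bKO, and -0.27, -0.52 and -0.49 in DKO. *Pdgfa* was the higher ligand per length in 10 of 11 libraries, Rspo2KO 1 being the exception, and the mean was lowest in wt at -0.87. In CPM, without division by length, *Pdgfc* had the higher mean over the 11 libraries, at 46.1 against 39.1 CPM. Which ligand is higher thus rests on the exon lengths used. By *Rspo2* label the mean was -0.35 ± 0.28 (SD) in the 6 mutant libraries and -0.62 ± 0.34 in the other 5, a difference of 0.27 (p = 0.186, two-sided exact permutation test, adjusted p = 0.407). By *Wnt9b* label the difference was 0.07 (p = 0.727 and adjusted p = 0.874, same exact test). Neither ratio differed beyond the spread between libraries, and without both libraries that go against their labels the 4 differences were 0.19, -0.18, 0.17 and 0.26, with p from the exact test of 0.111, 0.143, 0.508 and 0.302 in the order given above for *Pdgfra* to *Pdgfrb* by *Wnt9b* and *Rspo2* label, then *Pdgfc* to *Pdgfa* by the same labels.

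**Figure D4:**
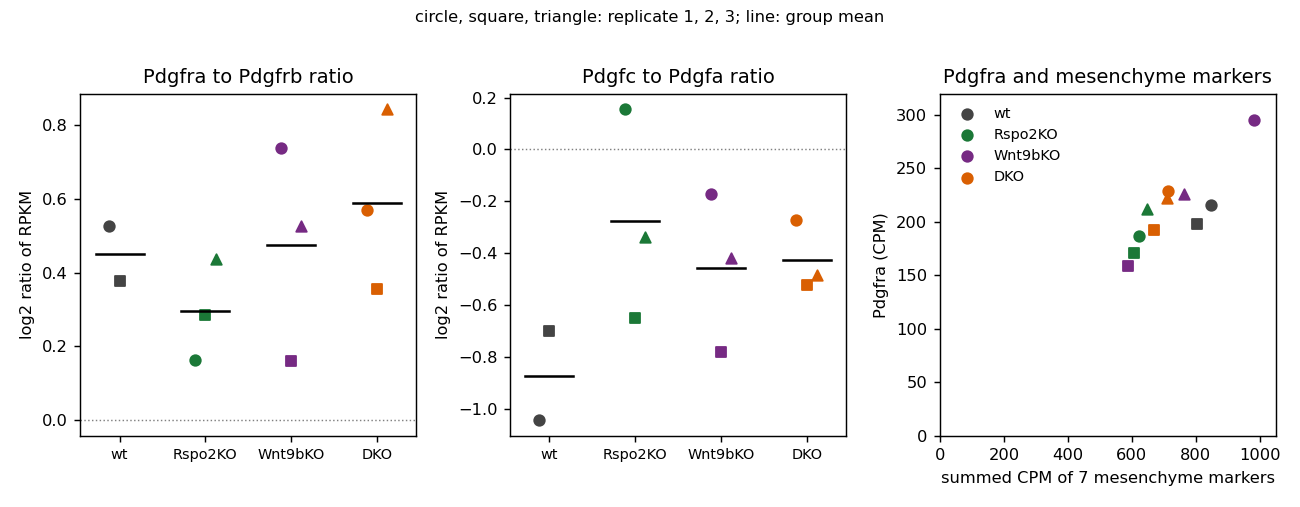
Log2 ratio of RPKM of *Pdgfra* to *Pdgfrb* and of *Pdgfc* to *Pdgfa* in each library by genotype label (line, group mean), and *Pdgfra* in CPM against the summed CPM of 7 facial mesenchyme markers (right). The receptor ratio lies above 0 in all 11 libraries, the ligand ratio is below 0 in all but 1, and the Wnt9bKO libraries hold both the lowest and the highest point of the right panel.

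Other genes of the pathway were taken from 4 lists of 70 genes, of which 68 were tested (*Fosb* and *Egr3* had at most 6 and 3 counts in a library). Genes of these lists were called in both directions, and whether their share differed from that of all genes or of the 6 PDGF genes was not tested. In Wnt9bKO against wt 28 of 68 (41.2%, against 32.8% of all genes) had an adjusted p below 0.05, 17 higher and 11 lower, and in DKO against wt 27 of 68 (39.7%, against 27.5%), 15 higher and 12 lower. In DKO against Rspo2KO 20 of 68 (29.4%, against 18.2%) were called, 10 in each direction. Median log2 fold changes of the 68 genes were 0.03, 0.04 and 0.07 in these comparisons, and 0.01, 0.01 and -0.00069 for all genes, and the first 2 turned to -0.04 and -0.07 with the GC and length offset. In Rspo2KO against wt and in DKO against Wnt9bKO edgeR called 0 of 68, with 11 and 1 at an unadjusted p below 0.05, and DESeq2 called 1 and 0. Leaving out wt 1 or wt 2 lowered the DKO against wt count to 17 or 15, and leaving out Rspo2KO 2, Rspo2KO 3 or DKO 2 lowered the DKO against Rspo2KO count to 11, 12 or 13. Without both libraries that go against their labels the 3 counts were 27, 23 and 14. The small nuclear RNA difference given above moved with the same labels.

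Receptor effectors, the adaptors and kinases that bind the activated receptors or follow RAS and phosphoinositide 3-kinase, are the longest of the lists, and 19 of 38 were called in Wnt9bKO (32.8% of all genes) and 19 of 38 in DKO against wt (27.5% of all genes), with 10 higher and 9 lower in each. *Hras*, a RAS GTPase, fell from 65.2 ± 5.22 CPM in wt (SD, n = 2) to 32.1 ± 0.97 CPM in Wnt9bKO and 36.5 ± 1.59 CPM in DKO (SD, n = 3 each), log2 fold changes of -1.02 and -0.84. *Crk*, an adaptor, fell by 0.73 and 0.69 on the log2 scale, and *Pik3r2*, a regulatory subunit of phosphoinositide 3-kinase, by 0.65 and 0.72. *Ptpn11*, the phosphatase SHP2 that carries receptor signals to RAS, rose from 90.8 ± 0.03 CPM in wt to 166 ± 8.66 CPM in Wnt9bKO and 155 ± 3.54 CPM in DKO, log2 fold changes of 0.87 and 0.77. In DKO against Rspo2KO 14 of 38 were called (18.2% of all genes), 6 higher and 8 lower, among them *Hras* (-0.85), *Crk* (-0.55) and the related adaptor *Crkl* (0.78). These 11 values had an adjusted p of 0.00402 or less by edgeR and stayed past the threshold under all 21 alternatives.

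Attenuators, which switch off the receptor or RAS, were called for 6 of 10 genes in Wnt9bKO against wt (4 higher, 2 lower), 5 of 10 in DKO against wt (3 higher, 2 lower) and 3 of 10 in DKO against Rspo2KO (1 higher, 2 lower), beside 32.8%, 27.5% and 18.2% of all genes. The tyrosine phosphatases *Ptpn12* and *Ptpn1* fell by 0.83 and 0.63 on the log2 scale in Wnt9bKO and by 0.86 and 0.71 in DKO against wt. *Rasa1*, a GTPase-activating protein for RAS that binds PDGFRβ, rose from 66.3 ± 5.99 CPM in wt to 113 ± 13.4 CPM in Wnt9bKO and 116 ± 1.44 CPM in DKO, log2 fold changes of 0.77 and 0.81. *Cblb*, a ubiquitin ligase of activated receptors, rose by 0.92 and 0.84 in the same comparisons, the latter lost without wt 1. In DKO against Rspo2KO the log2 fold changes were 0.65 for *Rasa1*, -0.64 for *Ptpn12* and -0.43 for *Ptpn1*.

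Genes that process or bind PDGF ligands were called for 2 of 10 in Wnt9bKO against wt, 1 of 10 in DKO against wt and 1 of 10 in DKO against Rspo2KO. The shares of all genes were 32.8%, 27.5% and 18.2%. *Sparc*, a matrix protein that binds PDGF-B, rose from 105 ± 34.7 CPM in wt to 163 ± 4.83 CPM in Wnt9bKO and 199 ± 32.7 CPM in DKO, log2 fold changes of 0.64 and 0.92. Its rise in Wnt9bKO was lost without wt 1, and its rise of 0.48 in DKO against Rspo2KO was lost without any 1 of the Rspo2KO libraries, DKO 1 or DKO 2. *Lrp1*, an endocytic receptor that associates with PDGFRβ, was higher in Wnt9bKO (0.65, adjusted p = 0.00689 by edgeR), a value that turned to -0.03 with the GC and length offset, and the call was lost without wt 2, so that no direction can be given.

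Of the growth factor response genes, immediate early targets of receptor signaling, 1 of 10 was called in Wnt9bKO against wt, 2 of 10 in DKO against wt and 2 of 10 in DKO against Rspo2KO, beside the same 32.8%, 27.5% and 18.2% of all genes. *Ccn1*, a secreted matrix-associated protein, rose from 16.3 ± 0.28 CPM in wt to 25.1 ± 3.42 CPM in Wnt9bKO and 27.96 ± 7.11 CPM in DKO, log2 fold changes of 0.62 and 0.78. Both were lost without wt 1 and without wt 2, and the first also without Wnt9bKO 2. In DKO against Rspo2KO *Ccn1* was higher by 0.70 and the transcription factor *Junb* by 0.78, at 4.68 ± 0.17 against 2.72 ± 0.28 CPM. The first was lost without DKO 2, and the second without Rspo2KO 3 and without DKO 1. *Ier2* was lower in DKO against wt, at a log2 fold change of -0.43 that was lost under 8 of 21 alternatives, among them the GC and length offset and leaving out wt 1, wt 2, Rspo2KO 2, DKO 1 or DKO 3.

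Relatives of the PDGF genes, the VEGF ligands and receptors and the class of *Kit*, made up 13 tested genes. Of these, 4 (30.8%) were called in Wnt9bKO against wt, 3 (23.1%) in DKO against wt and 2 (15.4%) in DKO against Rspo2KO. The shares of all genes were 32.8%, 27.5% and 18.2%, and whether those of the relatives differed was not tested. *Kit*, the receptor of stem cell factor and a close relative of *Pdgfra*, rose from 17.5 ± 2.98 CPM in wt to 30.9 ± 5.08 CPM in Wnt9bKO and 31.8 ± 2.01 CPM in DKO, log2 fold changes of 0.81 and 0.85. *Vegfb* rose by 0.83 and 0.82 and *Kdr*, the main VEGF receptor of endothelium, by 0.63 and 0.48, the last of these lost with the GC and length offset, without wt 2 and without DKO 1. The *Vegfb* call in Wnt9bKO was lost without wt 1 and without Wnt9bKO 3, and that in DKO without wt 1, wt 2 or DKO 3. *Flt4*, another VEGF receptor, was higher in Wnt9bKO against wt (0.53), a call lost under 10 of 21 alternatives. In DKO against Rspo2KO *Vegfc* was lower by 0.51 on the log2 scale and *Kit* higher by 0.50, the former lost without Rspo2KO 2 and without DKO 2. The *Kit* calls against wt were lost without wt 1, and that against Rspo2KO under 7 of 21 alternatives, among them leaving out Rspo2KO 2, Rspo2KO 3 or any DKO library. When both libraries that go against their labels were left out, the calls of *Flt4* in Wnt9bKO (0.47), of *Vegfb* (0.66) and *Ier2* (-0.37) in DKO against wt, and of *Kit* in DKO against Rspo2KO (0.53) were lost, and the other pathway genes and relatives named above kept their direction and stayed past the threshold.

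**Figure D5:**
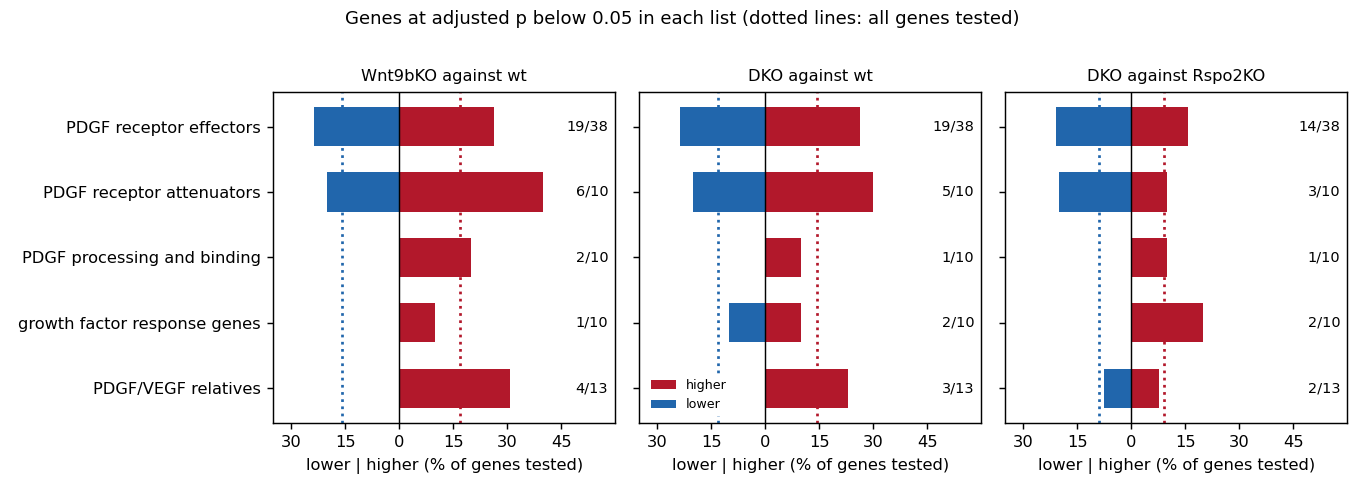
Share of each list's tested genes at adjusted p below 0.05 (edgeR), lower to the left and higher to the right, in 3 comparisons, with the number called over the number tested at the right edge. Dotted lines give the share of all genes tested that were called in that direction, 16.8% higher and 16% lower in Wnt9bKO against wt, 14.3% and 13.1% in DKO against wt, and 9.15% and 9.07% in DKO against Rspo2KO.

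Markers of the cells that the explants can hold were measured beside the PDGF genes. All 7 facial mesenchyme markers were tested, at a sum of 803 to 848 CPM in wt, 605 to 646 CPM in Rspo2KO, 589 to 983 CPM in Wnt9bKO and 671 to 714 CPM in DKO, and 1 of them was called, as lower, in DKO against wt. The 6 erythroid markers summed to 3940 to 5757 CPM in wt and Rspo2KO and to 1740 to 2846 CPM in Wnt9bKO and DKO, with 3 and 5 of 6 lower in Wnt9bKO and DKO against wt. The 6 forebrain and eye markers summed to 95.7 to 107 CPM in wt and 125 to 262 CPM in Wnt9bKO, with 5 of 6 higher in Wnt9bKO and in DKO against wt. The 8 neuron markers summed to 396 to 627 CPM in Wnt9bKO, 633 to 734 CPM in wt, 796 to 915 CPM in Rspo2KO and 760 to 848 CPM in DKO, with 2 lower in Wnt9bKO and 4 higher in DKO against wt. The 6 macrophage markers summed to 29.4 to 54.7 CPM over the series, with 3 and 2 lower in Wnt9bKO and DKO against wt, and the 7 muscle markers, of which 3 were tested, to 3.78 to 29.5 CPM. Of all genes tested, 16.8% were called higher and 16% lower in Wnt9bKO against wt, and 14.3% and 13.1% in DKO against wt. Whether the shares of the marker lists differed from these was not tested. No marker was at 0 in every library. The part of these cells in the PDGF and pathway values was not tested.

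The genes whose log2 CPM followed each PDGF gene most closely over the 11 libraries, among 14569 protein-coding genes tested, are given as a description, since all share the same libraries and depths. For *Pdgfra* they were *Sgcd* (Pearson's r = 0.95), *Atl3* (0.93) and *Plxdc2* (0.91), and for *Pdgfrb* *Cxcl16* (0.94), *6330409D20Rik* (0.88) and *Pofut1* (0.88). For *Pdgfa* they were *Cd59b* (0.94), *Cracr2a* (0.92) and *Rab5if* (0.90), and for *Pdgfc* *Antxr1*, *Afap1* and *Nfic* (0.97 each). *Pdgfb* was followed by *Mfge8* (0.92), *Ctnnd1* (0.91) and *Cnppd1* (0.91), and *Pdgfd*, measured on the fewest reads, by *Psma8* (0.85), *Pdpk1* (0.84) and *Hist1h4m* (0.79). No PDGF gene was among the nearest of another, and over the 15 pairs of PDGF genes r ran from -0.59 (*Pdgfa* and *Pdgfrb*) to 0.44 (*Pdgfra* and *Pdgfrb*).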

How the data were processed

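RNA of the 11 libraries was sequenced by the authors as single-end reads, trimmed with Cutadapt, mapped to GRCm38 with STAR and counted with HTSeq, with no versions given in the sources used here. The authors deposited raw counts, whole numbers of reads per Ensembl gene without normalization, and the strand setting is not given. Groups and replicate numbers came from the labels, and no library was reassigned.

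Counts were analysed with edgeR 4.0.16 in R 4.3.3 (TMM factors, filterByExpr, quasi-likelihood test, a mean per genotype over all 11 libraries because wt has 2), with Benjamini-Hochberg adjustment over 17317 genes. DESeq2 1.42.0, which the authors used, was an alternative. The fits were tested on simulated data. CPM used TMM-scaled totals, RPKM the exon length of the GRCm38 annotation (36723 of 38561 genes matched), and log2 CPM for ratios a prior count of 2 (0.5 as an alternative). Exact permutation tests used scipy 1.17.1 with Python 3.11.15, numpy 2.4.6 and pandas 2.3.3, and figures matplotlib 3.10.9. Upstream windows overlapping annotated exons, those of *Pdgfa*, were searched but not printed, and *Pdgfb* and *Pdgfrb* windows were not used here.

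The members and all gene lists were chosen with earlier results of these data known. Named genes are the 6 members, *Rspo2* and *Wnt9b*, up to 4 genes of each list with the smallest p among those called in a comparison, and the 3 genes nearest each member, except that some list genes are not reported here by name. Alternatives were DESeq2, RLE or upper-quartile factors, the filter dropped or set to 10 counts in each library, a model of the compared groups alone, a replicate block, a loess correction (span 0.3) for GC content and gene length with or without that block, an unadjusted p below 0.05 with over 1.5-fold change (the study names these sizes with DESeq2 and does not say whether p was adjusted), and leaving out each library or both that go against their labels. Comparisons against wt share its 2 libraries. With counts of 44 or more for every PDGF gene in every library, counting error is largest for *Pdgfd* and *Pdgfb*.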

Additional observations from a re-analysis of the deposited data

How the results depend on the processing

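Of 36 PDGF values refitted 750 times, 685 kept their direction and side of the threshold, 10 newly passed it and 55 changed sign, none of them past the threshold and none above 0.23 in size on the log2 scale. PDGF genes called went from 0 to 1 without the low-count filter in Wnt9bKO against wt (*Pdgfc*, 0.38) and DKO against wt (*Pdgfc*, 0.42), with only the groups compared in DKO against wt (*Pdgfc*, 0.40), and with the GC and length offset in DKO against Rspo2KO (*Pdgfa*, 0.39, and 0.38 with the replicate block). Leaving out each library gave 0 to 1 in these 3 comparisons and 0 in the other 3. Pathway genes called in Rspo2KO against wt went from 0 to 5 without the filter, 1 by DESeq2 and 4 by unadjusted p below 0.05 with over 1.5-fold change, and in DKO against Rspo2KO from 20 to 7 by that rule. Leaving out each library gave 21 to 33 in Wnt9bKO against wt, 15 to 28 in DKO against wt and 11 to 24 in DKO against Rspo2KO. The cause was not tested.

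With the GC and length offset, and in brackets with the replicate block added, log2 fold changes of the other sign were 0.084 (0.051) for *Pdgfa*, -0.12 (-0.19) for *Pdgfra*, -0.0052 (-0.0090) for *Pdgfrb* and -0.032 (-0.078) for *Lrp1* in Wnt9bKO against wt, 0.069 (0.034) for *Pdgfa* and -0.18 (-0.23) for *Pdgfra* in DKO against wt, and -0.015 (-0.017) for *Pdgfa* and -0.018 (-0.014) for *Pdgfd* in DKO against Wnt9bKO. Without both libraries that go against their labels they were 0.0058 for *Pdgfrb* in DKO against wt, -0.018 for *Pdgfa* and -0.12 for *Pdgfc* in DKO against Wnt9bKO, and -0.17 for *Pdgfra* in the interaction. *Pdgfd* in DKO against Rspo2KO was 0.0025 with upper-quartile factors and 0.011 with only the groups compared.

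Leaving out each library, these log2 fold changes changed sign within a range. In Wnt9bKO against wt *Pdgfa* ran from -0.14 to 0.038, *Pdgfb* from -0.12 to 0.24, *Pdgfd* from -0.28 to 0.0024, *Pdgfra* from -0.11 to 0.36 and *Pdgfrb* from -0.019 to 0.17. In Rspo2KO against wt *Pdgfd* ran from -0.22 to 0.055 and *Pdgfrb* from -0.025 to 0.11. In DKO against wt *Pdgfa* ran from -0.12 to 0.059, *Pdgfb* from -0.15 to 0.27, *Pdgfd* from -0.24 to 0.043, *Pdgfra* from -0.011 to 0.12 and *Pdgfrb* from -0.14 to 0.0049. In DKO against Wnt9bKO *Pdgfa* ran from -0.074 to 0.10, *Pdgfb* from -0.22 to 0.21, *Pdgfc* from -0.065 to 0.11, *Pdgfd* from -0.042 to 0.16 and *Pdgfra* from -0.28 to 0.16. In DKO against Rspo2KO *Pdgfd* ran from -0.074 to 0.062. In the interaction *Pdgfd* ran from -0.014 to 0.25 and *Pdgfra* from -0.17 to 0.28. The ratio of *Pdgfra* to *Pdgfrb* by *Rspo2* label ran from -0.10 to 0.045 and that of *Pdgfc* to *Pdgfa* by *Wnt9b* label from -0.059 to 0.24.

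Of 41 values of pathway genes and relatives chosen by the naming rule, 24 stayed called under all their alternatives. With the replicate block alone 0 PDGF genes were called in each comparison, and 29, 0, 27, 0 and 21 pathway genes in Wnt9bKO, Rspo2KO and DKO against wt, DKO against Wnt9bKO and DKO against Rspo2KO. Deviations of same-numbered libraries correlated above 0.1 in 3 of 15 pairs (median 0.066), and those of differently numbered libraries in 1 of 30 (median -0.024). Of the 11 libraries, 8 correlated best with one of the same number. These values do not settle whether the numbers pair the samples, and the main fit has no replicate block. The wt mean rests on 2 libraries, and a fit without 1 of them assumes that the lone library varies like the other groups. Depth limits *Pdgfb* and *Pdgfd* most.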
